A study of Homo sapiens with 2 samples.

Results

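MAGE-A cancer-testis antigens were represented by 5 genes, MAGEA2, MAGEA2B, MAGEA3, MAGEA6 and MAGEA12, among the 194 genes named in the authors' deposited tables of probe sets that differed at least 2-fold between 2 samples of Hep3B cells. All entries of those tables whose gene symbol contains MAGEA were taken, which gave 5 probe sets of the 244 listed, out of 54613 on the array that are not controls. All 5 were in the table of higher probe sets and 0 in the table of lower ones. Because the members were chosen by this difference, its sizes below are a description and no support for a difference in the cells.

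The knockdown sample, shCav1, was Hep3B with a hairpin that knocks down caveolin-1, the protein that coats caveolae, which are small pits of the plasma membrane. The control sample, shCtl, was Hep3B with a non-target hairpin. Hep3B is an established cell line from a human hepatocellular carcinoma, both samples were grown in DMEM-HG, and their total RNA was each hybridised to 1 Affymetrix HG-U133_Plus_2 array. The labels do not give the number of hairpin sequences, clones or cultures behind each sample. With 1 array per group there is no replicate error and no test, and caveolin-1 loss cannot be told apart from whatever else differed between the cell samples. The number of arrays limits the precision of every value.

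MAGE-A genes lie on the long arm of the X chromosome. Their transcripts are normally found in germ cells of the testis and are absent from most other adult tissues, where DNA methylation keeps their promoters silent, and many tumours, liver cancers among them, express them again. The proteins share a MAGE homology domain through which they bind RING-type ubiquitin ligases. MAGEA3 and MAGEA6 join TRIM28 to direct the degradation of AMP-activated protein kinase, and MAGEA2 also binds TRIM28. Peptides of these proteins are shown to T cells on HLA molecules, which made MAGEA3 a vaccine target.

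The promoters of the members are shown because the 5 probe sets differed in the same direction and the genes assigned to them share most of this sequence. The sequences are those of RefSeq on GRCh38.p14, where all 5 genes had an entry, with 7 transcription starts in all; for MAGEA2 and MAGEA12, which have several starts, the most downstream was taken. Over the full window of 300 bases (250 before the start and 50 from it on), MAGEA3 and MAGEA6 had identical promoters, and so did MAGEA2 and MAGEA2B. The MAGEA3 and MAGEA2B promoters were 88.4% identical over 285 aligned positions, MAGEA12 and MAGEA2B 92.7% over 245, and MAGEA12 and MAGEA3 86.7% over 270. The first sequence therefore stands for MAGEA3 and MAGEA6 and the second for MAGEA2B and MAGEA2. Capitals mark the longest run, 24 bases, that was present without a mismatch upstream of all 5 starts. The MAGEA3 sequence is chrX:152698544-152698793 on the plus strand, and the identical MAGEA6 sequence is chrX:152769690-152769939 on the minus strand. The MAGEA2B sequence is chrX:152714378-152714627 on the plus strand, and the identical MAGEA2 sequence is chrX:152753843-152754092 on the minus strand. The MAGEA12 sequence is chrX:152733612-152733806 on the plus strand, and it ends at position -56 from its start. All are written 5′ to 3′.
MAGEA3: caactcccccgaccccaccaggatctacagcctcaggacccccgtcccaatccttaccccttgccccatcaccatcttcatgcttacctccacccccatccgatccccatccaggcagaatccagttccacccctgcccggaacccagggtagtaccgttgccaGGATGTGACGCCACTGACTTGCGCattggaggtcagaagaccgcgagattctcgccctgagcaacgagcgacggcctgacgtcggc
MAGEA2B: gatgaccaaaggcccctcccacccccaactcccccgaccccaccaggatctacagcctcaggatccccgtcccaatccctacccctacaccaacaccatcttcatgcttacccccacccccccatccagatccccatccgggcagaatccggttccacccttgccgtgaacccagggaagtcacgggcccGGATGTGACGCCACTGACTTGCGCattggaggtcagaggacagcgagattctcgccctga
MAGEA12: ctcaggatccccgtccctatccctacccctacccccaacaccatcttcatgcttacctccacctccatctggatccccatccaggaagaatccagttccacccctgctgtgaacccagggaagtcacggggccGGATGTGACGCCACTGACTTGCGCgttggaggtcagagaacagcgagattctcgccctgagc

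The 24-base run GGATGTGACGCCACTGACTTGCGC lay at positions -86 to -63 for MAGEA3 and MAGEA6, -60 to -37 for MAGEA2 and MAGEA2B and -117 to -94 for MAGEA12, counted so that -1 is the last base before the start. It holds 2 CG dinucleotides, the site of DNA methylation in mammals. Among the 35116 promoters of the table, which cover 27305 gene symbols, 11 held the run on either strand (0.0313%). These belonged to the 5 members and to 4 genes that start beside them on the opposite strand, CSAG1, CSAG3, MAGEA3-DT and MAGEA6-DT. With up to 3 mismatches the run was found for 13 symbols, all of them MAGE-A or CSAG genes or transcripts named after them. Of the MAGE-A genes not in the deposited tables, the nearest match had 1 mismatch in MAGEA4, 2 in MAGEA9 and MAGEA9B, 3 in MAGEA8 and 11 in MAGEA11. MAGEA1, MAGEA5 and MAGEA10 had no promoter under those symbols and were not searched. A pair of shorter runs was also common to the 5 members, CACCATCTTCATGCTTACC of 19 bases with 0 CG and GCGAGATTCTCGCCCTGA of 18 bases with 2.

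Known promoter motifs were searched on both strands of the same windows as a description. The exact string CCGGAA, a form of the ETS core bound by ETS-family factors, was in the MAGEA3 and MAGEA6 windows and in 17.2% of all promoters. It was in 0 of the windows of the other 3 genes. Other forms of the ETS core were not searched, so its absence from these windows is not shown. The GC box GGGCGG, found in 44.95% of all promoters, the E-box CACGTG, found in 7.26%, and the TATA box TATAAA, found in 11.5%, were in 0 of the 7 member windows. None of the exact strings searched overlaps the capital run in the sequences shown, and other forms of these motifs were not looked for there. The number of CG dinucleotides was 19 in the MAGEA3 and MAGEA6 windows, 17 in those of MAGEA2 and MAGEA2B and 15 in that of MAGEA12. The median over all promoters was 14, with quartiles of 4 and 28. Between 51.1% and 57.1% of all promoters had fewer CG dinucleotides than these windows, which lay between the CG-poor and the CG-rich group of promoters. The windows of the upstream starts held fewer, 13 for MAGEA2 and 9 for MAGEA12.

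**Figure D1:**
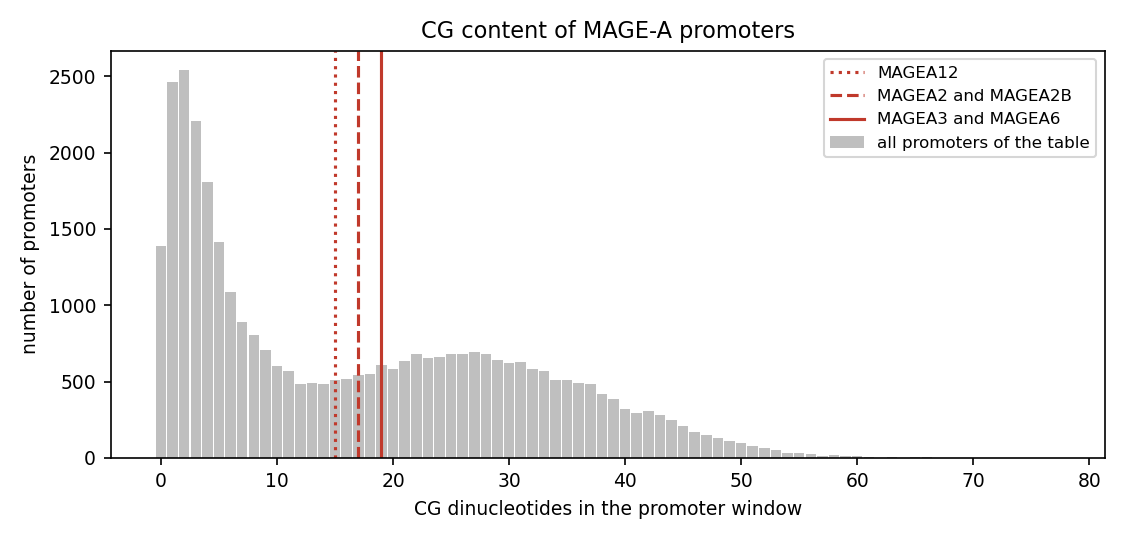
Number of promoters in the RefSeq table (vertical axis) by the number of CG dinucleotides in the window of 300 bases (horizontal axis). Vertical lines mark the most downstream start of each member, with MAGEA12 at 15, MAGEA2 and MAGEA2B at 17 and MAGEA3 and MAGEA6 at 19. They lie between the peaks of the CG-poor and the CG-rich promoters.

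In the RefSeq gene order of GRCh38.p14 the members stand next to each other, together with the CSAG genes, which encode cancer-testis antigens first found in chondrosarcoma. The 8 protein-coding genes in order were MAGEA3, CSAG2, MAGEA2B, CSAG1, MAGEA12, MAGEA2, CSAG3 and MAGEA6, with GABRQ on one side and CETN2 on the other. The genome build of the deposited alignments is not stated by the files or labels. They place the members' probe sets on Xq28 within 70.9 kb, from position 151867264 to 151938205. Of the 5 probe sets 4 were aligned to 2 places each, 1 on each strand. The probe sets named for MAGEA6 and MAGEA3 share the same outer places: 214612_x_at was aligned to 151869113 to 151870809 (plus strand) and 151934667 to 151936363 (minus strand), and 209942_x_at to 151867264 to 151870814 (plus) and 151934662 to 151938205 (minus). The deposited alignment score, whose scale the files do not define, was for 214612_x_at higher at its plus-strand place, 99.51 against 98.14, and that of 209942_x_at at its minus-strand place, 98.19 against 96.84. The joint probe sets of MAGEA2 and MAGEA2B were aligned to both inner places, 214603_at to 151883152 to 151887096 (plus) and 151918386 to 151922330 (minus). The MAGEA12 probe set, 210467_x_at, was aligned to 1 place, 151899294 to 151903172 on the minus strand. Its strand is the opposite of that in GRCh38.p14, so coordinates of the deposited alignments and of the promoters are not combined.

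**Figure D2:**
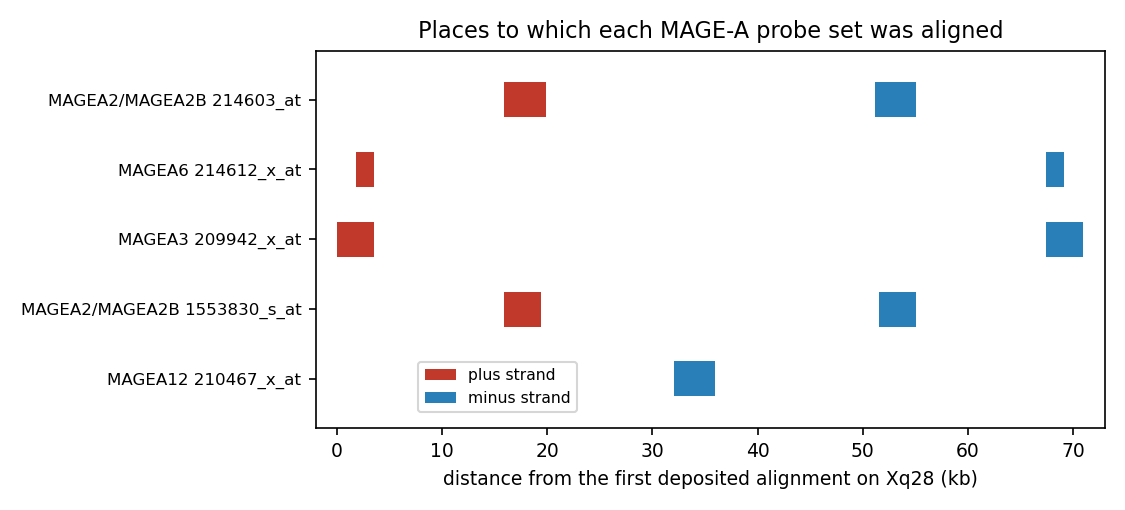
Places to which each of the 5 MAGE-A probe sets (rows) was aligned, as distance in kb from the first alignment, with colour for the strand. The probe sets of MAGEA6 and MAGEA3 cover the same outer places, those of MAGEA2 and MAGEA2B the same inner places, and that of MAGEA12 a place of its own between 32.0 and 35.9 kb.

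Hence the probe sets do not give 5 separate genes. Each jointly assigned probe set was counted as 1 measurement, the MAGEA3 and MAGEA6 values can each contain transcript of either gene, and 3 of the 5 probe sets have _x_at names, which Affymetrix gives where probes can bind other sequences, and 1 has an _s_at name, for probes shared by transcripts of several genes.

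All 5 listed MAGE-A probe sets went the same way. They were dim in shCtl, below the array median, and above it in shCav1, at 3.10-fold to 11.3-fold of the shCtl signal. Any MAGE-A probe sets under 2-fold have no name in the tables and are not covered. The median over both arrays was a linear signal of 30.7. The members' signals ran from 43.3 to 211 in shCav1 and from 8.43 to 25.5 in shCtl, and each probe set was higher on the shCav1 array. From total RNA of whole cultures, more cells with MAGE-A transcripts and more transcript per cell cannot be told apart. No detection call is used here, so whether the shCtl signals stand above background was not tested.

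MAGEA3 and MAGEA6, the partners of TRIM28 against AMP-activated protein kinase, had 1 probe set named for each, and either signal can contain transcript of both genes. The MAGEA6 probe set had a linear signal of 146 in shCav1 and 16.2 in shCtl, 9.03-fold higher or a log2 difference of 3.17. The MAGEA3 probe set had a signal of 193 in shCav1 and 25.5 in shCtl, 7.56-fold higher or a log2 difference of 2.92. These probe sets, which share their places on Xq28, were thus both far higher in shCav1. Counted from the highest log2 difference down, they ranked number 3 and number 7 among all 54613 probe sets.

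MAGEA2 and MAGEA2B, near-identical copies with identical promoters, were measured jointly by 2 probe sets. Probe set 214603_at had a linear signal of 211 in shCav1 and 18.7 in shCtl, 11.3-fold higher or a log2 difference of 3.50. Counted from the highest log2 difference down, it ranked number 2 of all probe sets. Probe set 1553830_s_at had a signal of 53.5 in shCav1 and 8.43 in shCtl, 6.35-fold higher or a log2 difference of 2.67. In that order it ranked number 12. The probe sets agreed in direction and differed in size, with a mean log2 difference of 3.08 ± 0.59 (SD, n = 2 probe sets on the same arrays, a technical spread).

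MAGEA12, whose protein belongs to the same family of ubiquitin ligase partners, had the smallest difference. Its probe set had a linear signal of 43.3 in shCav1 and 14.0 in shCtl, 3.10-fold higher or a log2 difference of 1.63. Counted from the highest log2 difference down, this probe set ranked number 42. MAGEA12 is the member whose probe set was aligned to a place of its own, in the centre of the cluster. The probe set, 210467_x_at, still has an _x_at name, so its probes can bind other sequences. Whether its signal contains transcript of other genes was not tested. The largest fold in the family was 3.65 times that of MAGEA12.

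**Figure D3:**
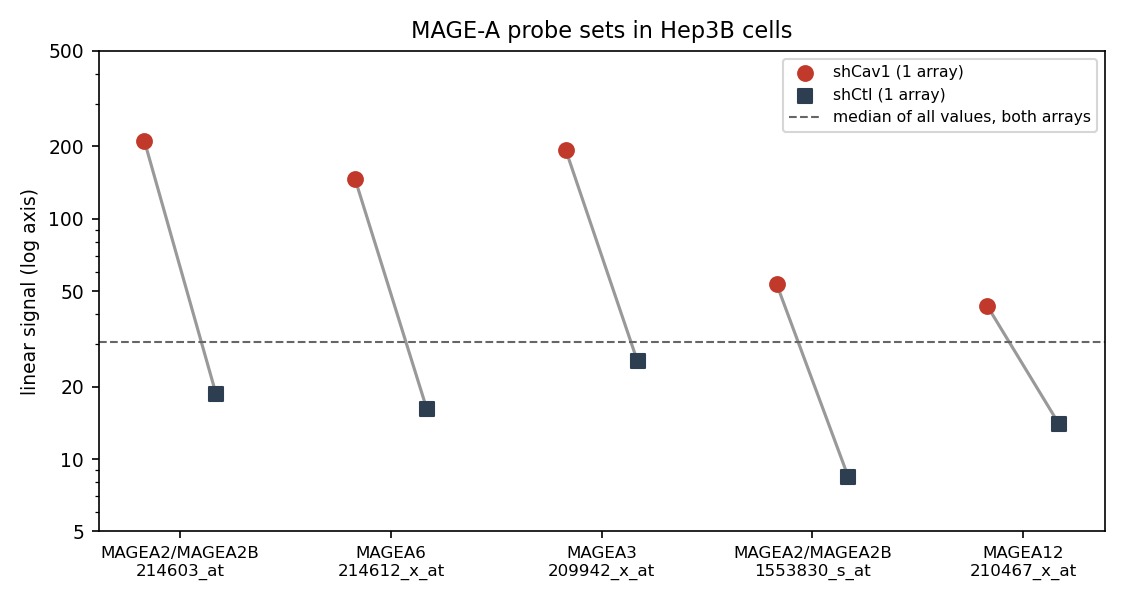
Linear signal (log axis) of the 5 MAGE-A probe sets on the shCav1 array (red circles, left) and the shCtl array (dark squares, right), 1 array each, with the median of all values on both arrays at 30.7 as a dashed line. All shCav1 values lie above this line, from 43.3 to 211, and all shCtl values below it, from 8.43 to 25.5.

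The median log2 difference of the 5 probe sets was 2.92 (range 1.63 to 3.50), beside -0.01 over the 28128 probe sets that passed a brightness filter, those at or above 30.7 on the brighter array. With the MAGEA2 and MAGEA2B probe sets averaged, the median of the 4 values was 3.0. All 5 members passed this filter, each through its shCav1 signal, since all 5 were under it in shCtl. All 5 were also at least 2-fold higher, which the choice of members fixes, beside 141 of the 28128 kept probe sets (0.501%). Of the members 0 were at least 2-fold lower, beside 84 of the kept probe sets (0.299%). Centred on the hybridization spikes, the kept probe sets past 2-fold were 100 higher and 143 lower, so the balance over the array turned round, while all 5 members were still at least 2-fold higher. At 3-fold all 5 members remained, beside 42 kept probe sets (0.149%), and at 6-fold 4 members, beside 12 kept probe sets (0.0427%). The probe sets nearest to the 2-fold limit of the tables on the higher side, inside and outside, were both at 2.0-fold after rounding, and the lowest member was at 3.10-fold.

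Dim probe sets were looked at separately, because all members were dim in shCtl. Of the 27352 probe sets with a shCtl signal under the median, 59 showed an at least 2-fold higher shCav1 signal (0.216%) and 6 an at least 6-fold higher one (0.0219%), 4 of them members. Within the members' own range of shCtl signal, 8.43 to 25.5, there were 18103 other probe sets, with a robust SD of the log2 difference of 0.19. Among these others 36 were at least 2-fold higher, 11 reached at least the difference of MAGEA12 and 1 was at least 6-fold higher. That 1 was VSIG1, which encodes an immunoglobulin-domain membrane protein. The spread is between 2 arrays over probe sets and is not a replicate error. The members were chosen for a difference past 2-fold, so their contrast with these others is a description and was not tested.

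**Figure D4:**
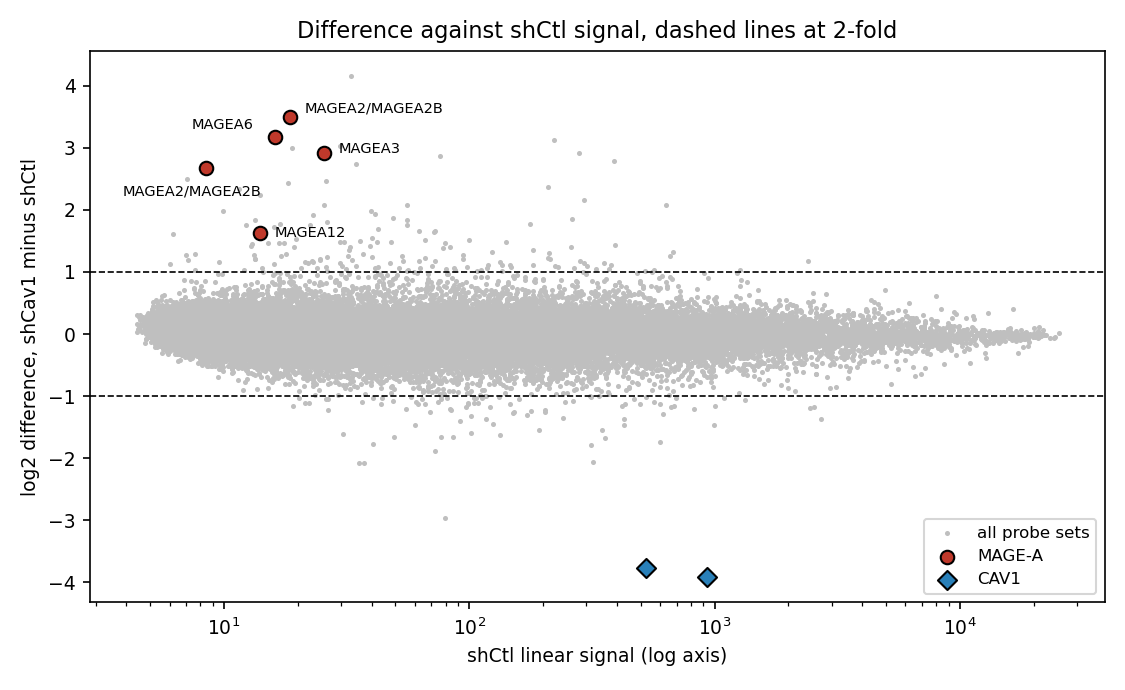
Log2 difference, shCav1 minus shCtl (vertical axis), against the shCtl linear signal (horizontal log axis) for 54613 probe sets (grey), the 5 MAGE-A probe sets (red circles) and both listed CAV1 probe sets (blue diamonds), with dashed lines at 2-fold. The members sit at the dim end, between 8.43 and 25.5, with differences from 1.63 to 3.50, while most grey points lie between the dashed lines.

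The scaling between the arrays moved the members little, and the treatment of dim signal moved them more. RMA, named in the submitters' notes, already quantile-normalizes the arrays. Median centring, loess and quantile normalization could therefore change little, and their small effect is no check of the difference. With 16 added to every linear signal before the logarithm, the log2 difference was 2.71 for 214603_at, 2.33 for MAGEA6, 2.33 for MAGEA3 and 1.51 for 1553830_s_at. That of MAGEA12 was 0.98, under 2-fold. Centred on the hybridization spikes, whose median log2 difference was 0.14, the members' log2 differences ran from 1.49 to 3.36. When probe sets with _s_at and _x_at names were left out, 1 member was left, 214603_at.

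**Figure D5:**
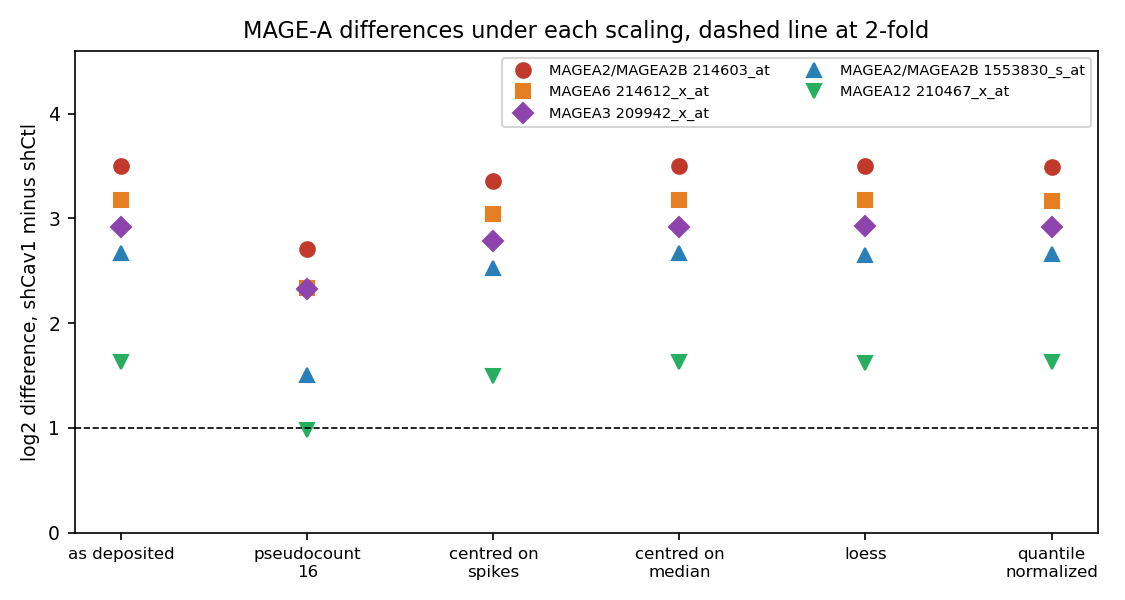
Log2 difference, shCav1 minus shCtl, of the 5 MAGE-A probe sets as deposited and under 5 other scalings (horizontal axis), with a dashed line at 2-fold. All points lie above 0, and MAGEA12 under the pseudocount of 16, at 0.98, is the 1 point under the dashed line.

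The arrays differed in other ways that are given beside the members' values. The targeted gene CAV1 had a signal of 61.8 in shCav1 and 935 in shCtl at probe set 212097_at, 6.61% of the shCtl signal, lower in the sample labelled as its knockdown. Of the control probe sets, the 5′ end of actin had a log2 difference of -0.88 and the 3′ end -0.22, and GAPDH -0.24 and -0.05, so the 5′ ends were lower on the shCav1 array. The part of this difference between transcript ends in the MAGE-A values was not tested. Of 14 hepatocyte markers 1 was listed, FGG, the fibrinogen gamma chain, with a signal of 944 in shCav1 and 263 in shCtl. Of 17 markers in 4 lists of other liver cell types 0 were listed. Over all 54613 probe sets 0.278% were listed as higher and 0.168% as lower. At such shares few markers of any list would be listed, so nothing is read from these counts. Markers under 2-fold have no name in the tables used here, so the cell type could not be checked.

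Other cancer-testis antigens were looked up in the deposited tables from 4 lists with 117 symbols, a few of them older names of other entries. The lists were the other MAGE-A genes (8), other MAGE genes (22) and other X-linked antigens such as the CTAG, GAGE, SSX and CSAG genes (46). The last list held further antigens, most of them autosomal (41). Of the 117 symbols 0 were listed as higher and 1 as lower. The tables list 152 of all 54613 probe sets as higher (0.278%) and 92 as lower (0.168%). At such shares few members of any list would be listed, and a gene needs a probe set on the array, which could not be checked, so nothing is read from this or the following list counts. It was PIWIL2, which encodes an Argonaute-family protein that binds germline small RNAs, with a signal of 23.9 in shCav1 and 55.2 in shCtl, 43.3% of the shCtl signal. Of the 3 CSAG genes inside the MAGE-A cluster, CSAG1 and CSAG3 hold the common promoter run, and CSAG2 had no promoter to search. These CSAG genes had 0 entries in the tables. Probe sets under 2-fold are not named there, so smaller differences of these genes were not analysed here.

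Regulators of MAGE-A genes were covered by 3 further lists. Of the 18 genes of DNA methylation, which include DNMT1, UHRF1 and the TET enzymes, 0 were listed in either direction. Of 23 histone repressors HDAC8, a histone deacetylase encoded on the X chromosome, was listed as lower, with a signal of 48.4 in shCav1 and 104 in shCtl, 46.4% of the shCtl signal. Of 13 factors linked to MAGE-A promoter activity the MYC-family factor MYCN was listed as higher, with 243 in shCav1 and 29.7 in shCtl.

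The last lists covered germ cell and pluripotency genes (14) and oncofetal liver genes such as AFP and GPC3 (12). In the first, KLF4, a pluripotency factor, was lower, with 33.9 in shCav1 and 102 in shCtl, 33.2% of the shCtl signal, and in the second 0 were listed. Under the pseudocount of 16 the log2 difference was -0.84 for PIWIL2 and -0.90 for HDAC8, both under 2-fold.

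L1CAM, a neural cell adhesion molecule, was the other gene of band Xq28 in the tables. Its signal was 41.5 in shCav1 and 12.3 in shCtl, 3.37-fold higher, and under the pseudocount its log2 difference was 1.02. The genes with 1 symbol whose log2 difference lay nearest to the MAGE-A median, over 2 samples, were CHODL (distance 0.01), COL2A1 (0.05), VSIG1 (0.09) and MYCN (0.12). With 1 array per group such likeness is a match in size of difference and nothing more. Of these VSIG1 and MYCN were below the array median in shCtl, and VSIG1 had 152 in shCav1 against 18.97 in shCtl. CHODL, a lectin gene, had 2114 in shCav1 and 281 in shCtl, and COL2A1, the main cartilage collagen, 556 in shCav1 and 76.2 in shCtl at its nearest probe set.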

How the data were processed

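Differences came from the authors' deposited series values, log2 values centred per probe set on both samples, as shCav1 minus shCtl. RMA, which corrects background, quantile-normalizes and summarises probes, is the tool named per the submitters' processing notes; no version is stated. Levels came from the control column of a deposited linear signal intensity table. A further column, 1 in number, matched no label and was not used, so shCav1 signals were computed as the shCtl signal times the fold, which takes both to be on 1 scale. The authors' deposited tables give each probe set at least 2-fold apart with its linear fold, and their log2 values equal the series differences within 1e-05. Gene names come from those tables.

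Control probe sets, 62 in number, did not enter. Kept were probe sets whose brighter array reached the median of all values, 30.7, and calls were made at 2-fold. The counting was tested on simulated data. Named genes are the members, CAV1, listed genes of the lists and of Xq28, and the 4 genes nearest in size of difference. Lists were matched by symbol and Entrez ID. A list of ubiquitin ligase partners holds an item not reported here and was omitted. Members and lists were chosen with earlier results of these data known, and the common promoter runs (15 bases or more) after the sequences were seen. Promoters are from RefSeq, GRCh38.p14, aligned locally with Biopython 1.88. The planned comparison of proteins was not run, as no protein sequences were used here. Alternatives were a pseudocount of 16, centring on the median or on the spikes, loess (span 0.3), quantile normalization, other brightness filters, limits of 1.5-fold, 3-fold and 6-fold, and leaving out _s_at and _x_at probe sets. Tools were Python 3.11.15, numpy 2.4.6, pandas 2.3.3 and statsmodels 0.14.6.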

Additional observations from a re-analysis of the deposited data

How the results depend on the processing

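All 5 MAGE-A probe sets kept a positive log2 difference under the 5 scalings run. This was largely fixed in advance, since a pseudocount cannot change a sign. Median centring, loess and quantile normalization could also move values that RMA had quantile-normalized only little. A pseudocount of 16 lowered their median to 2.33 and left 4 of them at least 2-fold higher; it gave 91 probe sets higher and 49 lower over the array, and a CAV1 log2 difference of -3.61. A filter at the 75th percentile of all values left 3 members, 79 probe sets higher and 43 lower, and a filter on the mean of both arrays left 3 members. Without _s_at and _x_at probe sets 1 member was left. Centring on the spikes gave 100 higher and 143 lower probe sets, against 141 and 84 as deposited, so the balance turned round. Limits of 1.5-fold, 3-fold and 6-fold gave 552, 42 and 12 higher and 578, 16 and 3 lower. Stricter filters and limits count fewer probe sets by construction. No paired analysis was possible because only 1 array was made per group. All members were under the array median in shCtl, and whether those signals stand above background was not tested.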

Other observations

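Apart from the MAGE-A probe sets, 10 X-linked probe sets were listed as higher in shCav1 and 5 as lower, which with the members makes 9.87% of the listed higher and 5.43% of the listed lower probe sets. The X-linked share of the whole array is not known from the tables used here. Of the 10, 5 lay in band Xq22.3, and these genes were picked out after their values were seen. VSIG1, given above, had the largest difference of them. MUM1L1 had a signal of 231 in shCav1 and 34.4 in shCtl, 6.70-fold higher. COL4A5, a chain of basement membrane collagen, had 39.2 in shCav1 and 9.88 in shCtl, 3.96-fold higher. NRK, a protein kinase gene, had 30.9 in shCav1 and 13.4 in shCtl, 2.31-fold higher, and 0.68 on the log2 scale under the pseudocount of 16. RNF128, which encodes a ubiquitin ligase of the endosome, had 767 in shCav1 and 371 in shCtl, 2.07-fold higher. XK, a membrane protein of red blood cells encoded at Xp21.1, had the lowest share of its shCtl signal among the 5 lower X-linked probe sets, with 8.40 in shCav1 and 35.6 in shCtl.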
